A study of Mus musculus with 2 samples.

Results

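The neurotransmitter receptor genes were examined for trimethylation of lysine 27 of histone H3 (H3K27me3) in primary rib chondrocytes. They were chosen by gene name: every symbol in the deposited peak annotation that begins with Gria, Grik, Grin, Grm, Gabr, Glra, Chrn, Chrm, Htr, Drd, Adra or Adrb, without Grina and the genes of the Gabarap family. This found 59 of the 4987 symbols with a peak. Htra2 and Htra4 matched by letters only, since they encode serine proteases of the HtrA family, and they were left out of every count below, which leaves 57 receptor genes. The RefSeq gene table of the mouse genome (GRCm38.p6) holds 96 protein-coding genes of the same names, so that 39 were joined to no peak. A gene is called marked here when the deposited annotation joins a peak to it, which it does for peaks that overlap the gene or lie within 5 kb of it.

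The cells were wild-type chondrocytes of newborn CD1 mice, released by collagenase from cartilage of the ribs, left untreated and held overnight in medium with serum. Chromatin was cut enzymatically, and 1 library of DNA precipitated with an antibody against H3K27me3 (ChIP) and 1 library of input DNA were sequenced, with 17237574 and 17004082 tags after filtering. There were no replicates, so no value below has a spread between samples, no test between conditions was possible, and the 95% Wilson intervals given with shares cover counting error over genes only. How many animals were pooled was not given in the sources used here. The libraries were grouped by their titles, and the labels' antibody tags go against these titles: H3K27me3 is entered for the input library, and input for the ChIP library.

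Polycomb repressive complex 2 (PRC2) places H3K27me3 on the chromatin of genes that a cell lineage keeps silent, and the mark spreads over domains rather than single nucleosomes. Many genes of other lineages carry it in a differentiated cell. The receptors examined here fall into ligand-gated ion channels, which open when glutamate, GABA, glycine, acetylcholine or serotonin binds, and G protein-coupled receptors, which pass the signal of glutamate, acetylcholine, serotonin, dopamine or noradrenaline to enzymes and channels inside the cell. Most are known from neurons, while some serve in muscle, vessels, heart or fat.

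The peaks at marker genes describe the material. None of 12 cartilage genes, among them Col2a1, Acan, Sox9 and Comp, was marked (0%, up to 24.2%). The share over all protein-coding genes, 20.7%, lies inside that interval. All of 9 genes of the neural lineage were marked (100%, from 70.1%), among them Sox1, Sox2, Pax6 and Olig2. A peak covered the start of 6 of them, beside 4.46% of all protein-coding genes. The neural count runs in the direction that the library titles give, while the cartilage count alone cannot be told from the share over all genes. Whether the antibody tags or the libraries were exchanged was not otherwise tested. RNA was not measured in these libraries, so the presence of other cell types in the preparation was not tested.

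Of the 96 receptor genes, 57 were marked (59.4%, 95% Wilson interval 49.4 to 68.7%), while the share among all 21883 protein-coding genes was 20.7%. With peaks of a q-value of at most 0.01 alone 18 were marked, beside 5.90% of all protein-coding genes, and with peaks enriched at least 3.5 times 18 as well, beside 5.35%. A peak overlapped the gene itself in 54 of the 57, and in 15 and 13 genes under these 2 settings, beside 4.10% and 3.70% of all protein-coding genes. Among all marked symbols this share was 68.8%, and it was 14.2% of all protein-coding genes. A peak covered the start of 16 receptor genes, that is 28.1% of those marked (18.1 to 40.8%), beside 22.5% of all marked symbols and 4.46% of all protein-coding genes. This count fell to 4 with peaks of a q-value of at most 0.01, beside 1.63% of all protein-coding genes, and to 3 with peaks enriched at least 3.5 times, beside 1.43%. The 3 genes with no peak over the gene, Chrm1 among them, were marked through peaks that touched no base of the gene, and in each the nearest peak ended less than 500 bp upstream of the start. At the edge of the 5 kb reach, the farthest peaks lay 4729 bp from Chrnb1, 4741 bp from Chrna3 and 4941 bp from Chrna5, all of which had nearer peaks too. The nearest unmarked genes by the gene table were Htr5a, 15.2 kb from a peak, and Gabrp, 20.5 kb from a peak. Grik1, Chrm3 and Chrna2 were unmarked in the deposited annotation, although a peak overlaps the position the gene table gives them.

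Long genes meet a peak more often than short ones, so the receptor genes were set beside genes of their own length. Of receptor genes under 10 kb, 12 of 17 were marked, beside 17.1% of all protein-coding genes of that length. From 10 to 50 kb the count was 17 of 33, beside 19.4%. From 50 to 200 kb it was 14 of 25, beside 25.8%. At 200 kb or more it was 14 of 21, beside 42.0%. The receptor share did not follow gene length, and the interval of the lowest of the 4 shares (51.5%, 35.2 to 67.5%) overlapped those of the other three. Weighted to the lengths of the receptor genes, the share over all protein-coding genes was 25.6%.

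**Figure D1:**
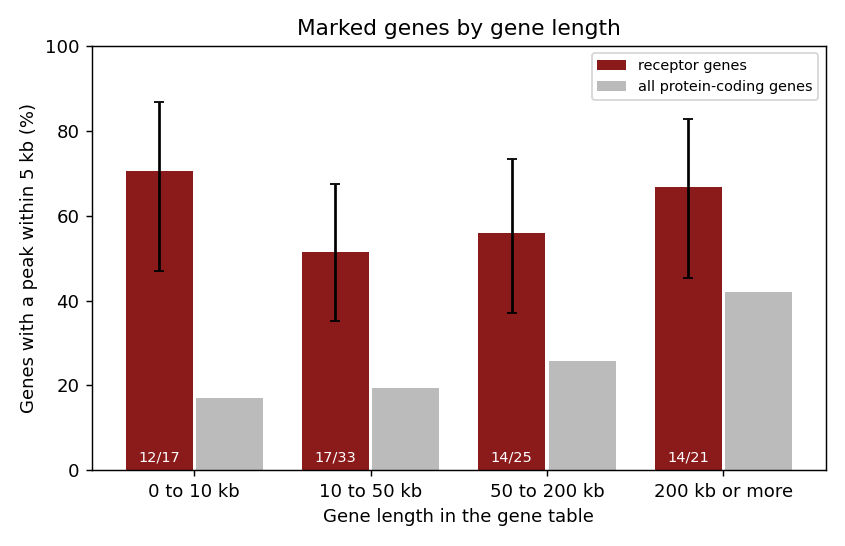
Bars give the share (%) of receptor genes (dark red, with 95% Wilson intervals and counts) and of all protein-coding genes (grey) that have a peak within 5 kb, in 4 bands of gene length. The grey bars climb from 17.1% to 42.0% with gene length, and the receptor bars stay between 51.5% and 70.6%.

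The receptor peaks numbered 182 and covered 464.5 kb. Their width ranged from 0.294 to 13.1 kb with a median of 1.45 kb, where the median of all 19359 peaks was 1.27 kb. The fold enrichment, the authors' ratio of ChIP pileup to input background, ranged from 2.89 to 4.01 with a median of 3.22, where the median of all peaks was 3.16. The pileup, the mean number of ChIP fragments over a peak, lay between 9.86 and 14.8 with a median of 11.1, where 9.86 was also the lowest of all peaks. By pileup the receptor peaks thus began at the weakest level that was called, while the lowest fold enrichment of all peaks was 1.42.

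The deposited q-value is a mean over the peak and in some peaks lies above the cutoff of 0.05 in the file header, for a reason that was not tested. It was at most 0.05 in 124 receptor peaks (68.1%), beside 60.8% of all peaks. It was at most 0.01 in 24 (13.2%), beside 11.0% of all peaks. A fold enrichment of at least 3.5 was reached by 21 receptor peaks, beside 9.56% of all peaks, and a width of 10 kb or more was seen in 7 (3.85%), beside 3.46%. By gene, 47 of the 57 had a peak with a q-value of at most 0.05 and 18 had one of at most 0.01, where the shares over all marked symbols were 79.5% and 29.2%. Among receptor peaks, as over the whole list, fold enrichment was higher in the wide ones: the 7 receptor peaks of 10 to 20 kb had a median of 3.51, where all 505 peaks of that width had 3.46. Between 0.75 and 1 kb the medians were 3.07 in both sets. Of the receptor peaks 5 lay above a fold enrichment of 3.7, for which no share over all peaks is given, and the whole list reached 4.79. None of the 182 receptor peaks was wider than 13.1 kb, while 165 of all 19359 peaks were of 20 kb or more. That share is so small that its absence among 182 peaks is no contrast.

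**Figure D2:**
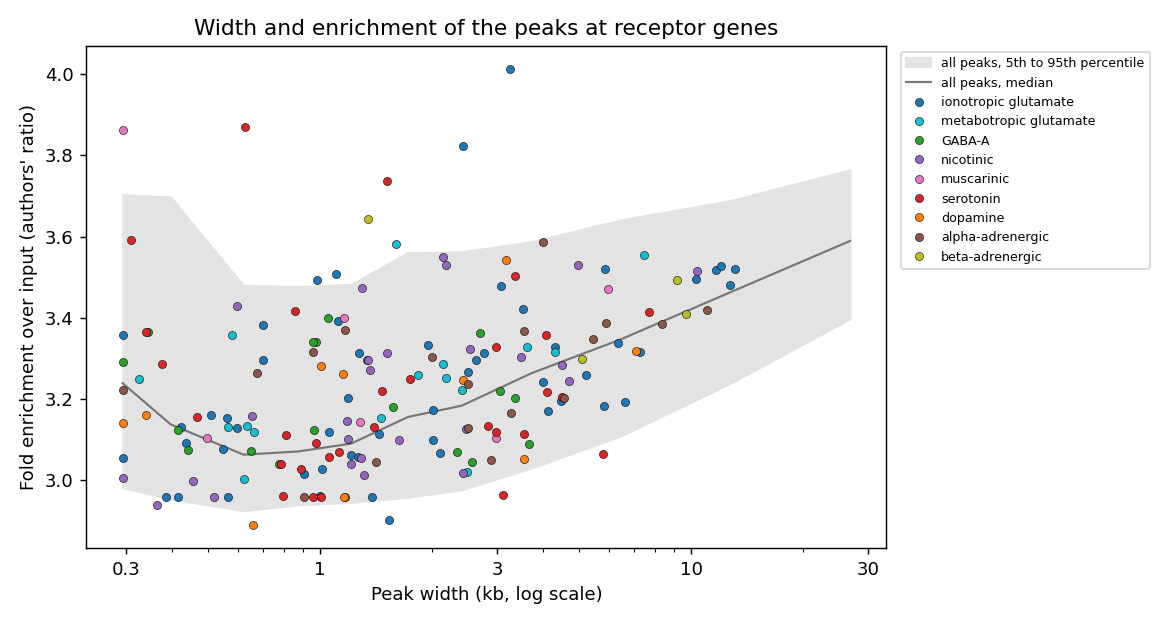
Each point is a peak at a receptor gene, by width (kb, log scale) and fold enrichment over input, coloured by class. The grey line and band give the median and the 5th to 95th percentile of all 19359 peaks in bins of width. Most points lie inside the band, and the highest is a peak of 3.25 kb at Grin1 with a fold enrichment of 4.01.

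The share of marked genes was also taken by class. Among the 16 ionotropic glutamate receptor genes 10 were marked, and among the 8 metabotropic ones 7. The GABA-A receptor had 8 of 19 genes marked and the glycine receptor 0 of 4. The nicotinic class had 8 of 16 and the muscarinic class 3 of 5. Of serotonin receptor genes 10 of 14 were marked, of dopamine receptor genes 4 of 5, of alpha-adrenergic ones 5 of 6 and of beta-adrenergic ones 2 of 3. Metabotropic glutamate had the highest share (87.5%, 52.9 to 97.8%) and glycine the lowest (0%, up to 49.0%), and these intervals do not overlap. The share over all protein-coding genes, 20.7%, lies inside the interval of glycine. Metabotropic glutamate kept the highest share on the autosomes but not with peaks of a lower q-value. These other settings were applied to the classes and mechanisms after the data were seen. On the autosomes alone glycine had 0 of 2 genes (up to 65.8%). With peaks of a q-value of at most 0.05 metabotropic glutamate had 6 of 8 (40.9 to 92.9%), beside 16.4% of all protein-coding genes. This was below the 5 of 6 of the alpha-adrenergic and the 4 of 5 of the dopamine receptors. The interval of metabotropic glutamate overlapped that of glycine in both settings. At a q-value of at most 0.01 metabotropic glutamate had 2 of 8 and the beta-adrenergic class 2 of 3, beside 5.90% of all protein-coding genes. With all peaks, GABA-A had the next lowest (42.1%, 23.1 to 63.7%), and its interval overlapped those of all the other classes.

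Grouped by mechanism, 28 of 57 ion channel genes were marked (49.1%, 36.6 to 61.7%) and 29 of 39 genes for G protein-coupled receptors (74.4%, 58.9 to 85.4%). All 7 receptor genes on the X chromosome were unmarked, and 6 of them encode channel subunits (Gabra3, Gabre, Gabrq, Glra2, Glra4 and Gria3, with Htr2c as the other). Of all 966 protein-coding genes of the X chromosome 5.90% were marked. On the autosomes alone, the shares were 54.9% for channels (41.4 to 67.7%) and 76.3% for G protein-coupled receptors (60.8 to 87.0%). No share over all autosomal genes is given beside them. With peaks of a q-value of at most 0.05 the counts were 23 of 57 (40.4%) and 24 of 39 (61.5%), beside 16.4% of all protein-coding genes. At a q-value of at most 0.01 they were 10 of 57 (17.5%, 9.82 to 29.4%) and 8 of 39 (20.5%, 10.8 to 35.5%), beside 5.90% of all protein-coding genes. Little of the contrast was left at that setting. All these pairs of intervals overlap, and the difference was not tested, since subunit genes lie in clusters and are not independent.

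**Figure D3:**
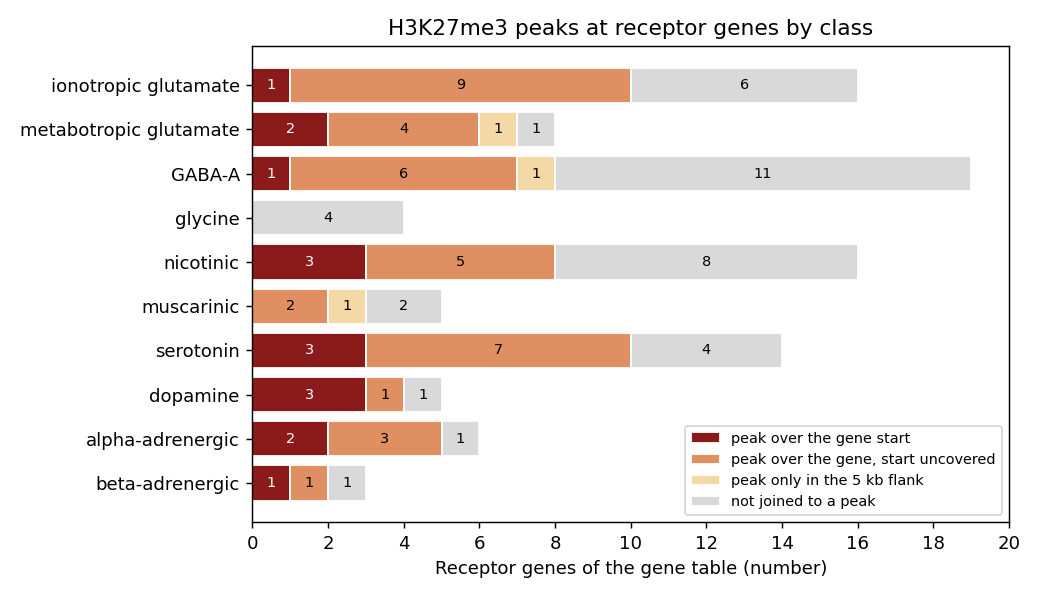
Horizontal bars count the receptor genes of each class by whether a peak covers the gene start, overlaps the gene without covering its start, lies only in the 5 kb flank, or is not joined to the gene. Genes with a covered start are fewer than the other marked genes in 7 of the 9 classes with marked genes, while they are 1 of 2 among beta-adrenergic and 3 of 4 among dopamine receptors.

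The position of the peaks relative to the gene start varied between genes. Of 187 pairs of a peak and a receptor gene, 117 lay wholly inside the gene (62.6%, where 54.2% of all pairs did), 32 upstream, 16 across the start, 13 across the end and 9 downstream. No peak contained a whole receptor gene. Of the 57 marked genes, 36 had a peak within 1 kb of the start (63.2%, 50.2 to 74.5%), beside 44.0% of all marked symbols, and 50 had one within 5 kb, beside 78.6%.

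In 21 receptor genes the start itself was free of a peak while peaks lay within 5 kb on both sides of it (36.8%, 25.5 to 49.8%). The share over all marked symbols was 17.5%. Such an arrangement needs 2 peaks or more. Among the 45 receptor genes that had them the share was 46.7% (32.9 to 60.9%), beside 33.7% of the 2594 symbols with as many, a value inside that interval. The gap over the start measured 2.74 kb at the median and ran from 1.29 kb at Grik3 to 5.55 kb at Chrnd. The smallest gap between any neighbouring peaks of the list is 1.18 kb, so the list could hold no narrower one. When peaks within 5 kb of each other were joined, an alternative added after the data were seen, 36 receptor genes had a covered start in place of 16 (63.2%, 50.2 to 74.5%). That count follows from the gaps, since such joining closes every one of them except that of Chrnd. The same joining raised the share from 22.5% to 38.3% of all marked symbols and from 4.46% to 7.74% of all protein-coding genes.

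The 21 genes came from 8 of the 9 marked classes. They were Grik3, Grin1, Grin2a and Grin2b of the ionotropic and Grm4 and Grm8 of the metabotropic glutamate receptors, Gabra2, Gabra5, Gabrb2 and Gabrg3 of the GABA-A receptor, Chrna1, Chrnb1 and Chrnd of the nicotinic receptor, Chrm2, the serotonin receptors Htr1b, Htr1f, Htr6 and Htr7, and the adrenergic receptors Adra1d, Adra2b and Adrb1. With the starts that the gene table gives, 19 of the 21 still lay between peaks. The start of Gabra5 then moved 81007 bp upstream, and that of Grin2a fell under a peak. Of the 16 covered starts 15 remained covered. Gabrb1 was the exception, because its deposited start lies 42012 bp downstream of that in the gene table.

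**Figure D4:**
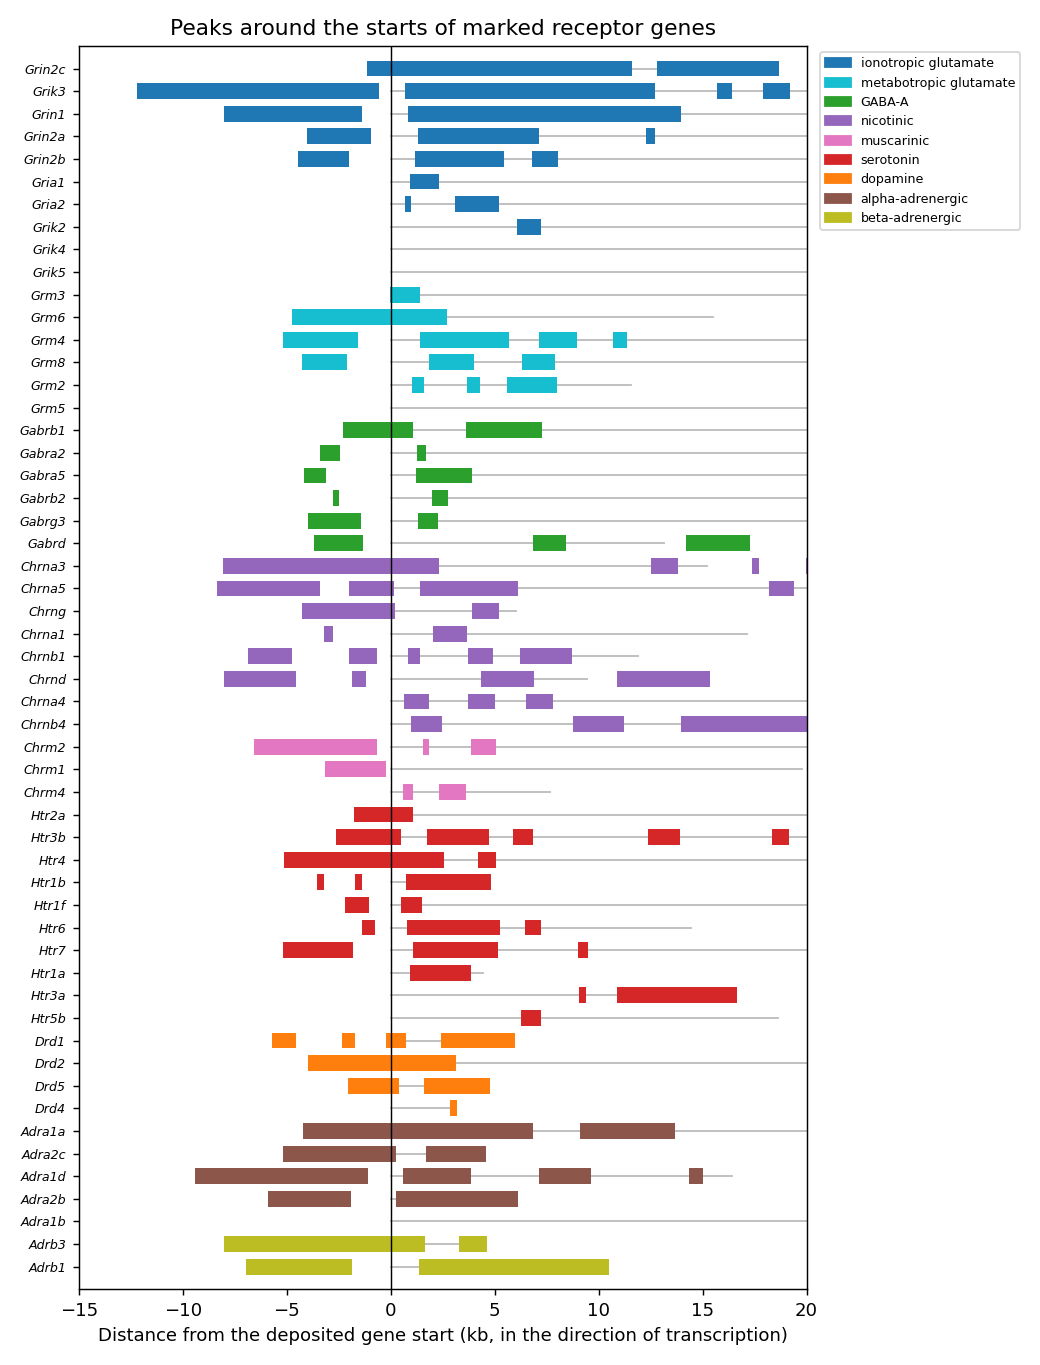
Each row is 1 of 54 marked receptor genes, coloured by class, with coloured bars for peaks and a grey line for the gene, by distance (kb) from the deposited gene start in the direction of transcription. Within a class, genes with a peak over the start come first and genes whose start lies between peaks next; the gaps around 0 in rows such as Grik3, Grin1, Adra2b and Htr6 are 1287, 2208, 2177 and 1544 bp wide.

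Promoter sequences from RefSeq (GRCm38.p6, the assembly also called mm10) are shown for both arrangements, as the 150 bases that precede the start in the RefSeq promoter table, 5′ to 3′, with CG dinucleotides in capitals. That start lay 260 bp upstream of the deposited one in Drd2, 50 bp upstream in Gabra5 and at most 5 bp away in the other genes shown except Htr7. In Htr7 it lay 147 bp inside the deposited record, so that the window of Htr7 falls almost wholly within the gene as deposited. Windows were matched for 70 of the 96 receptor genes (72.9%). That is under 80%, so a comparison of base composition or motifs between sets of receptor promoters would be void and was not made. The first genes are those with a covered start and the largest summed peak length of their class that had a window within 1 kb of the deposited start. All 150 bases lay under a peak in each of them. They are Grin2c at chr11:115267244-115267393 (minus strand), Grm6 at chr11:50850535-50850684 (plus strand), Gabrb1 at chr5:71699782-71699931 (plus strand), Chrna5 at chr9:54980730-54980879 (plus strand), Htr3b at chr9:48964991-48965140 (minus strand), Drd2 at chr9:49340253-49340402 (plus strand) and Adra2c at chr5:35278416-35278565 (plus strand).
Grin2c: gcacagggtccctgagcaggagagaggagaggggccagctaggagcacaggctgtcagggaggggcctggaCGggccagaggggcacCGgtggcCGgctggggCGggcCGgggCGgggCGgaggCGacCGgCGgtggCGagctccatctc
Grm6: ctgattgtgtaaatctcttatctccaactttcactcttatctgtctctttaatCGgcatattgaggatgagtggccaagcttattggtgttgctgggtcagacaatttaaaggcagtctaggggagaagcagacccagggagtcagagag
Gabrb1: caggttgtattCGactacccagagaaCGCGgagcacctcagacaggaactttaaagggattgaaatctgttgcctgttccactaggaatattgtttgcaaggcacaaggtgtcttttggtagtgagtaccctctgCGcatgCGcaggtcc
Chrna5: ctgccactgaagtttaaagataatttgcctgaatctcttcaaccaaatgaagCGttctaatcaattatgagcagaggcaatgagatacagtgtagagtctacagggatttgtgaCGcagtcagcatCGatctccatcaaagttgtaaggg
Htr3b: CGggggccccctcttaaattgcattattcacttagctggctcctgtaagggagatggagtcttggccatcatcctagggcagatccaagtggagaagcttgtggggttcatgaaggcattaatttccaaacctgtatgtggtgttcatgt
Drd2: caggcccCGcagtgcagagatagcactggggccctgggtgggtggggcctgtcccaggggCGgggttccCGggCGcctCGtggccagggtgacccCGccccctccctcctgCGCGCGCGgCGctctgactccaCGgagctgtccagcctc
Adra2c: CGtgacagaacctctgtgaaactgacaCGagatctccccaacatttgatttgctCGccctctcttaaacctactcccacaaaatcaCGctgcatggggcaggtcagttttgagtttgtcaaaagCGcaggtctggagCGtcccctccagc

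These covered promoters did not share 1 composition. Drd2 held 12 CG dinucleotides and Grin2c 11 in 150 bases, Adra2c held 6, Gabrb1 5 and Chrna5 3, and Grm6 and Htr3b held 1 each. Over the 17485 protein-coding promoters of the table the median was 7 and the quartiles 2 and 13. The G and C content ran from 41.3% in Chrna5 to 76.0% in Drd2 and Grin2c.

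The next 3 promoters belong to genes whose start lay between peaks, the largest by summed peak length in 3 classes, chosen after the arrangement was seen. None of their 150 bases lay under a peak. They are Grik3 at chr4:125490546-125490695 (plus strand), Gabra5 at chr7:57510060-57510209 (minus strand) and Htr7 at chr19:36057361-36057510 (minus strand).
Grik3: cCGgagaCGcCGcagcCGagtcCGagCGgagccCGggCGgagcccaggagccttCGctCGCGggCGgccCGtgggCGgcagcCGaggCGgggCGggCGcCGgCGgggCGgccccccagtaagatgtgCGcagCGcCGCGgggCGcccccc
Gabra5: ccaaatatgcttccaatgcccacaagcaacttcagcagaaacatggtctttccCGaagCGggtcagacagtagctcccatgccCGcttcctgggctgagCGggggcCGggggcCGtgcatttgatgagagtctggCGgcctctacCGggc
Htr7: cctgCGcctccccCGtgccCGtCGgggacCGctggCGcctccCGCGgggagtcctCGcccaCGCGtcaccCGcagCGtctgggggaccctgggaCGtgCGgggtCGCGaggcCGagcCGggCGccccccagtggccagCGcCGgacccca

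Grik3 held 26 CG dinucleotides in these 150 bases, Htr7 22 and Gabra5 8, with G and C contents of 84.0%, 81.3% and 60.7%. Both parts of the binding element of REST, a repressor of neuronal genes outside the nervous system, were searched on both strands of the 300 base windows, as TTCAGCACC and GGACAG. The first was in none of the 10 windows shown and in 0.412% of all promoters. The second was in those of Gabrb1, Drd2 and Gabra5 and in 22.2% of all promoters. A match is a description of these letters and not a site.

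The ionotropic glutamate receptors are the main fast excitatory channels of the brain, built from AMPA (Gria), kainate (Grik) and NMDA (Grin) subunits. The marked genes were Gria1, Gria2, Grik2, Grik3, Grik4, Grik5, Grin1, Grin2a, Grin2b and Grin2c, with 55 peaks of 167.5 kb in all. The unmarked ones were Gria3, Gria4, Grik1, Grin2d, Grin3a and Grin3b. Grik3, a kainate receptor subunit, carried more peaks than any other receptor gene: 29, of 89.5 kb, over 33.1% of its 223.5 kb. Their fold enrichment had a median of 3.29, and 22 of the 29 had a q-value of at most 0.05. The largest pair flanked the start, with 11.6 kb up to 576 bp before it and 12.0 kb from 712 bp after it, at fold enrichments of 3.52 and 3.53. Peaks then followed over the gene as far as 205504 bp from the start, with a further one of 3.99 kb beyond its end. The other kainate genes stood far apart from this, with 1 peak each in Grik2 (1.17 kb) and Grik4 (0.596 kb) and 2 peaks at Grik5 (6.22 kb in sum).

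The NMDA receptor genes held the strongest single peak. Grin1 encodes the subunit that every NMDA receptor contains. Its 4 peaks summed to 23.9 kb and included the widest receptor peak of all, 13.1 kb long, which began 830 bp inside the gene and reached a fold enrichment of 3.52 (q-value 0.00820). Its highest peak lay across the 3′ end (chromosome 2, 25288446 to 25291696), with the highest fold enrichment (4.01) and the lowest q-value (0.000601) of any receptor gene. That peak also lay within 5 kb of Anapc2, Lrrc26 and Tmem210, so it cannot be given to Grin1 alone.

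Grin2c, which encodes a glutamate-binding subunit of the cerebellum, was the only gene of the class with a covered start. A peak of 12.7 kb with a fold enrichment of 3.48 ran from 1126 bp upstream of its start into the gene, a second of 5.88 kb with a fold enrichment of 3.52 crossed its end, and together they lay over 93.5% of the 18.1 kb gene. Both peaks were within reach of another gene, Fdxr at the start and Tmem104 at the end. Grin2b, a glutamate-binding subunit prominent early in development, had 10 peaks of 14.4 kb in sum, and the strongest, upstream of the start, reached a fold enrichment of 3.82. Grin2a had 3 peaks of 9.31 kb in sum. The AMPA receptor genes were weak beside these: Gria1 had 1 peak of 1.38 kb and Gria2 had 2 of 2.40 kb in sum, and none of the 3 had a q-value of at most 0.05.

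The metabotropic glutamate receptors adjust transmission through G proteins. The marked genes of the class, among them Grm2, Grm3, Grm4, Grm5, Grm6 and Grm8, had 16 peaks of 32.9 kb, and Grm7 was not marked, with its nearest peak 562.4 kb away. Grm6, the receptor of the ON bipolar cells of the retina, had a single peak of 7.44 kb over its start (fold enrichment 3.56, q-value 0.00595), which the annotation also joined to Zfp879. Grm3, which couples to inhibitory G proteins, had a single peak of 1.46 kb over its start (fold enrichment 3.15, q-value 0.0479).

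Grm4 had the largest summed length of the class, 11.4 kb in 6 peaks with a highest fold enrichment of 3.33, and Grm8 had 5.93 kb in 3 peaks with a highest of 3.58. Both are presynaptic receptors, and both had peaks on either side of an uncovered start. Grm2 had 3 peaks of 3.60 kb, and Grm5 had 1 of 2.49 kb that lay 526983 bp downstream of the start.

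The GABA-A receptors are the main inhibitory channels of the brain. The marked genes, among them Gabra2, Gabra5, Gabrb1, Gabrb2, Gabrd and Gabrg3, had 17 peaks of 26.1 kb. Gabra3, Gabra4, Gabra6, Gabre, Gabrg1, Gabrp, Gabrq, Gabrr1, Gabrr2 and Gabrr3 were among the unmarked ones. The class had the narrowest peaks, at a median of 0.976 kb with none above 3.65 kb, and no peak with a q-value of at most 0.01 or a fold enrichment of at least 3.5. Every other class with marked genes had at least 1 peak with a q-value of at most 0.01.

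Gabrb1, a beta subunit gene, had 2 peaks of 7.01 kb in sum, with 3.36 kb over the deposited start (fold enrichment 3.20, q-value 0.0373). Gabrd, the subunit of receptors outside the synapse, had 3 peaks of 6.96 kb in sum with a highest fold enrichment of 3.22. Gabra5 had 2 peaks of 3.75 kb in sum with a highest fold enrichment of 3.40. The GABA-A genes lie in clusters, and marking differed among them. On chromosome 5 Gabra2 and Gabrb1 were marked but not Gabrg1 or Gabra4, and on chromosome 11 Gabrb2 was marked but not Gabra6. On chromosome 7 Gabrg3 and Gabra5 were both marked. The cluster of Gabre, Gabra3 and Gabrq on the X chromosome had no peak.

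The 4 alpha subunit genes of the glycine receptor, the inhibitory channel of spinal cord and brainstem, were all unmarked (0%, up to 49.0%). The share of 20.7% over all protein-coding genes lies inside that interval. Glra2 and Glra4 lie on the X chromosome, where 5.90% of all protein-coding genes were marked. The nearest peaks lay 183.2 kb from Glra1, 2701.5 kb from Glra2, 477.0 kb from Glra3 and 48.3 kb from Glra4. Glrb, whose product joins the alpha subunits and whose name the rule does not take, had a single peak of 0.493 kb with a fold enrichment of 2.96.

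The nicotinic receptors, channels opened by acetylcholine, serve at the junction of nerve and muscle and in neurons. Of the muscle subunit genes, Chrna1, Chrnb1, Chrnd and Chrng were marked, and Chrne, which replaces the product of Chrng after birth, was not. Chrng had a peak of 4.48 kb over its start (fold enrichment 3.28, q-value 0.0174), which the annotation also joined to Chrnd, whose end lies upstream of it. Chrnd had 4 peaks of 11.1 kb in sum. Of the neuronal subunit genes Chrna3, Chrna4, Chrna5 and Chrnb4 were marked, and Chrna2, Chrna6, Chrna7, Chrna9, Chrna10, Chrnb2 and Chrnb3 were not.

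Chrna5, Chrna3 and Chrnb4, which form a cluster of 68.1 kb on chromosome 9 and are expressed together in autonomic ganglia, had 11 peaks of 29.8 kb between them. Chrna5 had 8 peaks of 15.5 kb in sum, with 2.18 kb over the start (fold enrichment 3.53, q-value 0.00850). The start of Chrna3 was covered by a peak of 10.4 kb (fold enrichment 3.51, q-value 0.00715), and the same peak crossed the end of Chrnb4. Chrna3 had 4 peaks of 12.6 kb in sum and Chrnb4 had 3 of 14.3 kb, and all 4 peaks of Chrna3 were joined to one of its neighbours as well. The remaining genes had less, with 7.76 kb in 5 peaks at Chrnb1, 3.80 kb in 3 at Chrna4 and 2.08 kb in 2 at Chrna1. Peaks at Chrnb1 lay close to other genes, and each of the 5 was joined to another symbol too.

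The muscarinic receptors answer acetylcholine through G proteins. Chrm1, Chrm2 and Chrm4 were marked with 6 peaks of 12.2 kb and no covered start, and Chrm3 and Chrm5 were not. Chrm2, the receptor that slows the heart, had 3 peaks of 7.41 kb in sum, and the highest fold enrichment was 3.86, in a peak of 0.294 kb with a q-value of 0.00203. Chrm1, a receptor of the cortex, had 2.98 kb up to 202 bp before its start (fold enrichment 3.10, q-value 0.0571). Chrm4 had 2 peaks of 1.78 kb inside the gene with a highest fold enrichment of 3.14. All peaks of Chrm2 and Chrm4 were joined to another symbol as well.

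The serotonin receptors include G protein-coupled receptors and the channel formed from Htr3 subunits. Htr1a, Htr1b, Htr1f, Htr2a, Htr3a, Htr3b, Htr4, Htr5b, Htr6 and Htr7 were marked, with 30 peaks of 62.4 kb, and Htr1d, Htr2b, Htr2c and Htr5a were not. Both channel genes, neighbours on chromosome 9, were marked. Htr3b had 8 peaks of 15.7 kb in sum over 39.7% of the gene. The peak over its start, 3.11 kb long, was weak (fold enrichment 2.96, q-value 0.0971), and the highest fold enrichment (3.74, q-value 0.00399) lay 12379 bp inside the gene. Htr3a had 2 peaks, of 6.08 kb in sum, towards its end and none near its start.

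Htr4, which stimulates cyclic AMP, had a peak of 7.69 kb over its start (fold enrichment 3.41, q-value 0.0151) among 6 peaks of 13.1 kb in sum. Htr2a, the target of classical hallucinogens, had a single peak of 2.84 kb over its start (3.13, q-value 0.0487). Htr7 had 3 peaks of 7.91 kb in sum around an uncovered start, with a highest fold enrichment of 3.504. Htr6, expressed in the striatum, had 3 peaks of 5.90 kb in sum, and a peak of 0.629 kb with a fold enrichment of 3.87 was the second highest of all receptor peaks. The rest had 4.76 kb in 3 peaks (Htr1b), 2.98 kb in 1 (Htr1a), 2.13 kb in 2 (Htr1f) and 0.973 kb in 1 (Htr5b).

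Of the 5 dopamine receptor genes, 3 had a covered start. Drd2, the main inhibitory dopamine receptor, had 7.11 kb over its start (fold enrichment 3.32, q-value 0.0226) and 3 peaks of 8.56 kb in sum. Drd1, which stimulates cyclic AMP, had 1005 bp over its start (3.28, q-value 0.0295) and 4 peaks of 6.37 kb in sum. Drd5, of the same group, had 2.42 kb over its start (3.25, q-value 0.0328) and a second peak across its end (3.54, q-value 0.00837), 5.60 kb in sum over 56.2% of the gene. Drd4 had only a peak of 0.340 kb across its end, and Drd3 had none, with its nearest peak 514.8 kb away.

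The adrenergic receptors answer noradrenaline and adrenaline in vessels, heart, fat and neurons. Of the alpha group, Adra1a, Adra1b, Adra1d, Adra2b and Adra2c were marked with 18 peaks of 61.4 kb, and Adra2a was not, with its nearest peak 68.2 kb away. Adra1a, a receptor of smooth muscle, had 8 peaks of 24.99 kb in sum, the second largest sum of all receptor genes, with 11.1 kb over its start (fold enrichment 3.42, q-value 0.0125). Adra2c had 5.43 kb over its start (3.35, q-value 0.0192) and 8.31 kb in sum. Adra1d had 14.8 kb in 4 peaks and Adra2b 9.87 kb in 2, both with peaks on either side of the start. The peak downstream of the start of Adra2b ran over 93.5% of this 4.01 kb gene. Adra1b had 2 peaks of 3.42 kb in sum, the nearest of them 101201 bp from its start.

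The beta-adrenergic genes had the widest peaks of any class, with a median of 7.11 kb over 4 peaks, all with a q-value of at most 0.05. Adrb3, the receptor of brown and white fat, had 9.70 kb over its start (3.41, q-value 0.0144) and 11.04 kb in sum. Adrb1, the main receptor of the heart, had 14.2 kb in sum in 2 peaks of 5.08 and 9.14 kb that left 3.22 kb around its start free.

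**Figure D5:**
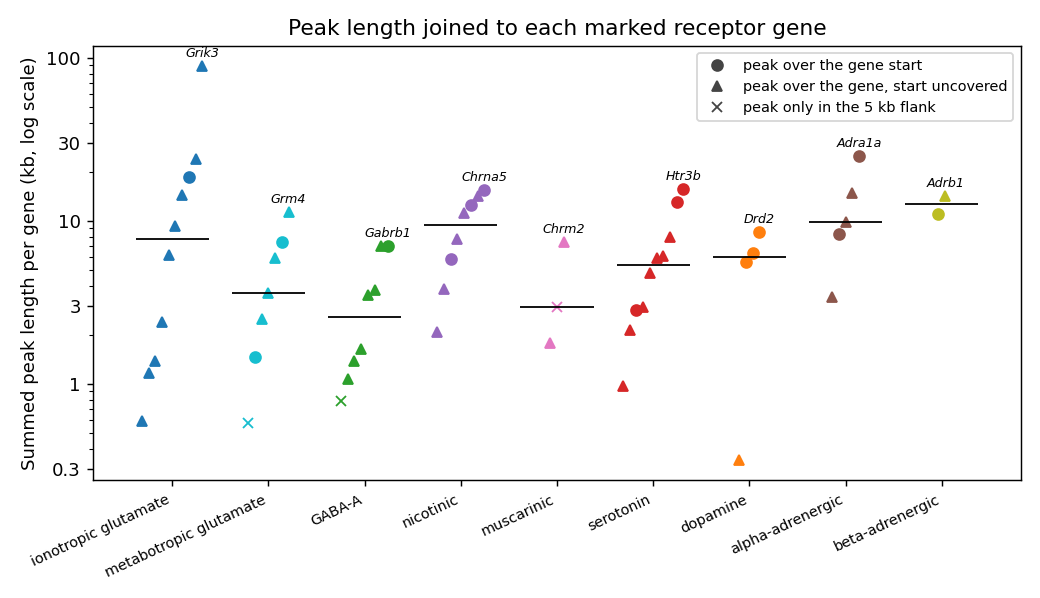
Points give the summed length of the peaks joined to each marked receptor gene (kb, log scale) by class, with a marker for where the peaks lie and a horizontal line at the class median. Grik3, at 89.5 kb, stands apart from the other genes, which lie between 0.340 and 24.99 kb, and the class medians run from 2.58 kb (GABA-A) to 12.6 kb (beta-adrenergic).

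Several peaks were joined to more than 1 gene. Of the 57 receptor genes, 19 had a peak that the annotation joined to another symbol as well, beside 42.1% of all symbols with a peak. In 10 every peak was of this kind, beside 29.1%: Chrm2, Chrm4, Chrna3, Chrnb1, Chrng, Drd4, Gabrg3, Grin2c, Grm6 and Htr1b. It follows that 47 receptor genes stayed marked through peaks with no other symbol within 5 kb. This alternative was added after the data were seen. Of all peaks with a symbol, 14.0% had more than 1.

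Other genes of neurotransmission were counted from lists of known members. Of 18 transporters 13 were marked (72.2%, 49.1 to 87.5%), among them Slc32a1, which loads GABA and glycine into vesicles, with a peak of 28.9 kb over its start, and Slc17a7, which loads glutamate, with a peak of 19.8 kb. Of 16 enzymes that make or remove transmitters 6 were marked (37.5%, 18.5 to 61.4%): Gad1, Gad2, Th, Tph1, Chat and Ache. Of 26 scaffolds and auxiliary subunits 12 were marked (46.2%, 28.8 to 64.5%), with Shank2 (11 peaks, 22.0 kb) and Cacng8 (2 peaks, 16.3 kb) among them. The intervals of the 3 lists overlap that of the receptor genes, and the share of 20.7% over all protein-coding genes lies inside the interval of the enzymes. Of receptor genes whose names the rule does not take, Grid1, Gabbr2 and Glrb were marked and Gabbr1 was not.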

How the data were processed

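H3K27me3 ChIP DNA and input DNA from wild-type rib chondrocytes were sequenced as 1 library each. The submitters' processing notes name CASAVA 1.8.4, Bowtie2, MACS2 and the build mm10. Per the file headers, the authors called broad peaks with MACS 2.1.0.20140616, ChIP against input, at a q-value cutoff of 0.05, with 17574613 ChIP and 17369199 input tags (17237574 and 17004082 after filtering). The pileup is a coverage signal, the fold enrichment a ratio, and p-values and q-values are −log10 values, all deposited per peak by the authors. The authors also deposited the join of peaks to Ensembl genes within 5 kb. The tool for that step was not given in the sources used here.

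The 19359 peaks had identical values in both tables. Symbols joined by semicolons were split, and 148 older symbols were matched through synonyms to a RefSeq gene table (GRCm38.p6). A start is covered when a peak contains the 5′ end of the deposited record. A peak's place relative to a gene was tested on simulated intervals. Receptor genes were named by class, apart from some that are not reported here by name, with fuller values for covered starts, for the 3 genes of each class with the largest summed peak length and for the highest fold enrichment and lowest q-value. The members and lists were chosen with earlier results of these data known. Python 3.11.15, pandas 2.3.3 and scipy 1.17.1 were used. Alternatives were stricter peaks, other gene positions and joined peaks. With 1 library per group there was no test. No set comparison of promoters was made because fewer than 80% of receptor genes had a window. Columns of samples outside the series numbered 0. The lowest pileup of any peak was 9.86.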

Additional observations from a re-analysis of the deposited data

How the results depend on the processing

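No paired analysis was possible because there was only 1 library of each kind, and leaving one out leaves no comparison. Over 45 alternatives of 7 quantities, 23 stayed within 1.5 times the count or within the interval and 22 moved. Only peaks with a q-value of at most 0.05 moved the median width to 2.19 kb, the median fold enrichment to 3.31 and the share of receptor genes marked to 49.0%. A q-value of at most 0.01 left 18 marked genes (18.75%), 15 with a peak over the gene, 4 covered starts and 24 peaks, with medians of 3.62 kb and 3.54-fold. Peaks enriched at least 3.5 times left 18 marked genes (18.75%), 13 with a peak over the gene, 3 covered starts and 21 peaks, with medians of 3.18 kb and 3.55. Under these 3 settings, 16.4%, 5.90% and 5.35% of all protein-coding genes were marked. Peaks of at least 1 kb had a median width of 2.52 kb. A peak within 1 kb of the start gave 36 genes, and peaks joined within 5 kb gave 84 domains with a median of 6.95 kb and 36 covered starts (beside 38.3% of all marked symbols), the last an alternative added after the data were seen. These selections act on width and enrichment by construction, and joining acts on covered starts in the same way. Gene positions from the gene table gave 60 marked genes and 17 covered starts. No share over all protein-coding genes at these positions is given beside them. Depth was not varied, and 124 of 182 receptor peaks had a q-value of at most 0.05. Leaving out the X chromosome gave a share of 64.0%, with no share over all autosomal genes given beside it.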
